A study of Mus musculus with 45 samples.

Results

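The Cyp1 family of mouse comprises *Cyp1a1*, *Cyp1a2* and *Cyp1b1*, cytochrome P450 enzymes that oxidize aromatic hydrocarbons and steroids. These 3 genes were taken by name from the 39179 Ensembl genes counted in the livers of 45 female C57BL/6 mice, and their baseline, threshold, slope and plateau were compared. The mice were gavaged from postnatal day 28 and every 4 days for 28 days with sesame oil vehicle or with TCDD. There were 9 groups of 5 mice, the vehicle group, 4 low doses from 0.01 through 0.03 and 0.1 to 0.3 µg/kg, and 4 higher doses of 1, 3, 10 and 30 µg/kg. The sample labels also carry the words ovariectomized and daily, which the methods of the study do not, so whether these mice were ovariectomized is not settled here. The samples were whole liver of 1 strain and 1 sex, and in such bulk RNA a change in the number of cells of a type cannot be told apart from a change in RNA per cell. RNA was sequenced to between 11767284 and 56509899 reads on genes per mouse (median 17225047), and levels are given as CPM, reads on a gene scaled to the reads on all genes of the mouse, after TMM normalization.

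TCDD is a persistent dioxin that binds the aryl hydrocarbon receptor (AhR), a transcription factor held in the cytosol by a chaperone complex. The bound receptor enters the nucleus, pairs with ARNT and binds dioxin response elements, whose core letters are GCGTG, and the Cyp1 genes are its classical targets. CYP1A2 is a constitutive enzyme of hepatocytes that also binds TCDD, CYP1A1 is scarce in untreated liver and strongly inducible, and CYP1B1, which hydroxylates estradiol, is best known from tissues outside the liver.

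The 6 hepatocyte markers looked at (*Alb*, *Apoa1*, *Ttr*, *Cps1*, *Tat* and *Hnf4a*) had reads in every mouse, and their summed level was between 110810 and 147400 CPM in vehicle mice and between 102810 and 154230 CPM at 30 µg/kg. Of the single mice, 3 stood apart from their group, each as the highest of its 5. The fifth replicate at 0.01 µg/kg did so in *Cyp1a1* and *Cyp1b1*, replicate 2 of the 0.1 µg/kg group in *Cyp1a1*, and replicate 4 of the 1 µg/kg group in *Cyp1b1*. Many of the results that rest on them are given with and without them, and the Hill curves mainly with all mice. In another library of the lowest dose, replicate 2, the X-inactivation transcript *Xist* was at 2.93 CPM against 1112 to 2844 CPM in the other 44 mice, while no read fell on 4 Y-linked genes in any mouse.

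*Cyp1a1* (ENSMUSG00000032315) and *Cyp1a2* (ENSMUSG00000032310) are neighbours on chromosome 9 of GRCm38. *Cyp1a1* lies at chr9:57687928-57703824 on the plus strand and *Cyp1a2* at chr9:57676937-57683703 on the minus strand, so they point away from each other across 4224 bases between their annotated ends. *Cyp1b1* (ENSMUSG00000024087) lies at chr17:79701537-79715061 on the minus strand. None of them overlaps another annotated gene. Of the stretches of 50 bases in their transcripts, 94 of 2737 (3.43%) in *Cyp1a1* and 94 of 1963 (4.79%) in *Cyp1a2* also occurred in the other gene, where reads could not be placed uniquely, and 0 of 5838 in *Cyp1b1* were shared.

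The sequences just upstream of the 3 genes are shown because dioxin response elements are where the activated receptor binds. Each window runs from 250 bases before to 50 bases after the RefSeq start on GRCm38.p6, read 5′ to 3′ on the strand of the gene, with GCGTG (or its complement CACGC) and TATAAA in capitals. The *Cyp1a1* window is chr9:57697363-57697662 on the plus strand, inside the longer span of the counted gene, the *Cyp1a2* window chr9:57683606-57683905 on the minus strand and the *Cyp1b1* window chr17:79715012-79715311 on the minus strand.
Cyp1a1: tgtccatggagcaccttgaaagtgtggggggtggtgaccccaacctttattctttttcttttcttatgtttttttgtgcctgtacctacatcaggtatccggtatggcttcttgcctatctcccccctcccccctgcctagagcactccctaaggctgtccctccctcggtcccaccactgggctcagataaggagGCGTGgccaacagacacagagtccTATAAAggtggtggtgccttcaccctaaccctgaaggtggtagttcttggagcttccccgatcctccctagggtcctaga
Cyp1a2: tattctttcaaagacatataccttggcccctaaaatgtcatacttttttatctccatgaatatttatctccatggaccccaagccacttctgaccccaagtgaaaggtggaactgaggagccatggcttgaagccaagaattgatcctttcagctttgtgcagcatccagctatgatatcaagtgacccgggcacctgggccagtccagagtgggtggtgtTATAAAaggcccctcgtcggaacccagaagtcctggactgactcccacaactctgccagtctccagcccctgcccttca
Cyp1b1: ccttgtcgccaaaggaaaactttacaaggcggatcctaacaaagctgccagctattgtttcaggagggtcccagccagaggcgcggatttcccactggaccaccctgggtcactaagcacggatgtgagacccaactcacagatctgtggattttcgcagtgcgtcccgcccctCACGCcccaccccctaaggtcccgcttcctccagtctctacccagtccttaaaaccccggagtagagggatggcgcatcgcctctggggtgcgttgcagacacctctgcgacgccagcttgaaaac

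The *Cyp1a1* window held GCGTG at bases -54 to -50 and TATAAA at bases -30 to -25, counted from the start. The *Cyp1a2* window held TATAAA at bases -29 to -24 and the letters GCGTG on neither strand. The *Cyp1b1* window held CACGC at bases -76 to -72, no TATAAA and 16 CG pairs, against 4 in *Cyp1a1* and 3 in *Cyp1a2*. Of 27025 mouse promoters of the same length, 32.5% held GCGTG on either strand and 8.9% held TATAAA on the strand of the gene, so these letters are common and a match describes the window only.

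In the vehicle mice the 3 transcripts differed widely in abundance. *Cyp1a2* was abundant in all 5 vehicle mice, at 1040.3, 942, 1094, 1220.5 and 1228 CPM. *Cyp1a1* was at 2.90, 1.34, 5.48, 16.6 and 11.1 CPM, from 21 to 269 reads. *Cyp1b1* was at 0.849, 0.636, 0.616, 2.48 and 2.48 CPM, from 10 to 49 reads. Vehicle replicates 4 and 5 had the highest values of all 3 genes, whereas the SD was 11.02% of the mean for *Cyp1a2* and 84.4% and 69.2% for *Cyp1a1* and *Cyp1b1*. Per kilobase of exons the vehicle means were 549 ± 60.5 CPM (SD, n = 5) for *Cyp1a2*, 2.69 ± 2.27 for *Cyp1a1* and 0.242 ± 0.167 for *Cyp1b1*, ranked 88, 7369 and 13038 among 17270 genes with a length. At 30 µg/kg the same ranks were 6, 13 and 152. The order *Cyp1a2*, *Cyp1a1*, *Cyp1b1* per kilobase held within 45 of 45 mice, by exon length and by coding length.

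Together the 3 genes took 0.106% ± 0.0121 (SD, n = 5) of the reads on genes in vehicle mice and 2.91% ± 0.224 (SD, n = 5) at 30 µg/kg. In vehicle mice *Cyp1a2* supplied 99.2% of the family's reads, *Cyp1a1* 0.631% and *Cyp1b1* 0.121%. At 0.3 µg/kg the shares were 70.3%, 29.7% and 0.0235%, and at 30 µg/kg they were 65.7%, 28.8% and 5.50%. The share of *Cyp1a1* grew over the low doses and that of *Cyp1b1* over the high ones.

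**Figure D1:**
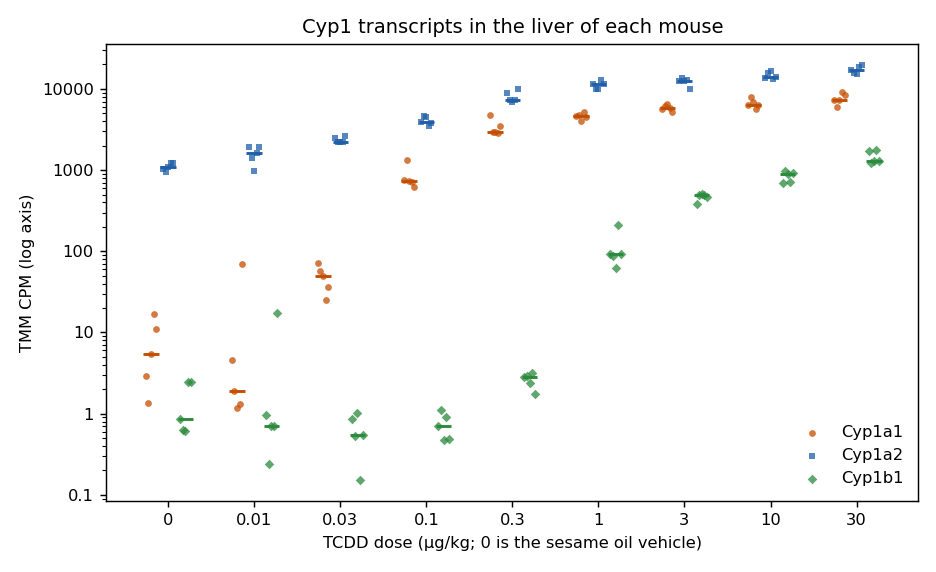
TMM CPM of *Cyp1a1* (circles), *Cyp1a2* (squares) and *Cyp1b1* (diamonds) in each of 45 mice on a log axis, by TCDD dose in µg/kg, with a bar at the median of each group of 5. *Cyp1a2* starts near 1105 CPM, *Cyp1a1* climbs between 0.03 and 0.3 µg/kg, *Cyp1b1* between 0.3 and 3 µg/kg, and 1 mouse at 0.01 µg/kg lies far above its group in *Cyp1a1* and *Cyp1b1*.

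*Cyp1a1*, the inducible enzyme, increased more than 100-fold within the low doses. The 5 mice given 0.01 µg/kg were at 4.54, 1.91, 1.18, 1.33 and 69.7 CPM. Those given 0.03 µg/kg were at 71.8, 56.7, 49.2, 25.3 and 36.4 CPM. The next group, at 0.1 µg/kg, was at 745, 1325, 744, 715 and 612 CPM. All 5 mice at 0.03 µg/kg were above the highest vehicle mouse and all 5 at 0.1 µg/kg above those at 0.03 µg/kg. Mice given 0.3 µg/kg had 4714, 2966, 2988, 2898 and 3511 CPM. Those given 1 µg/kg had 4585, 4774, 4001, 5139.8 and 4464 CPM. A dose of 3 µg/kg gave 5641, 6185, 6436, 5751 and 5242 CPM. The step from 0.3 to 1 µg/kg overlapped by the highest mouse at 0.3 µg/kg, and the mice at 3 µg/kg were all above those at 1 µg/kg. Mice given 10 µg/kg had 6282, 7990.3, 6969.5, 5688 and 6342 CPM. The highest dose gave 7283, 6020.4, 7281, 9064 and 8489 CPM, which overlapped the group before.

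Mean *Cyp1a1* was 7.50 ± 6.32 CPM (SD, n = 5) in vehicle mice and 6.38-fold that level at 0.03 µg/kg. It was 110.5-fold the vehicle mean after 0.1 µg/kg, 456-fold after 0.3 µg/kg and 1017-fold after 30 µg/kg. The edgeR quasi-likelihood test called it from 0.1 µg/kg, with a log2 fold change of 6.78 (SE 0.73, adjusted p = 1.09e-07), or 6.54 without replicate 2 at that dose (adjusted p = 3.58e-07). The log2 fold change at 0.03 µg/kg came to 2.66 (SE 0.62, adjusted p = 0.0828), although the groups did not overlap (exact permutation p = 0.007937, the smallest that 5 against 5 mice allow). Without the fifth mouse at 0.01 µg/kg, the same edgeR fold change had an SE of 0.35 and an adjusted p of 2.48e-05. The lowest dose called was then 0.03 µg/kg.

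*Cyp1a2*, the constitutive enzyme, was already high and moved in smaller folds. The lowest dose gave 1952, 1425, 989, 1637 and 1926 CPM. Mice given 0.03 µg/kg had 2499.5, 2236, 2246, 2242 and 2666 CPM. Those given 0.1 µg/kg had 3866, 4601, 4509, 3501 and 3799.8 CPM. The 0.01 µg/kg group overlapped the vehicle group by its lowest mouse, and each of the next 2 groups lay wholly above the one before. Mice given 0.3 µg/kg had 8882, 7287, 6838, 7344 and 10000 CPM. The 1 µg/kg group had 11649, 10041, 9889, 12795 and 11585 CPM. The 3 µg/kg group had 12370, 13527, 12415, 12841 and 9905 CPM. Neighbours among these 3 groups overlapped, while that at 0.3 µg/kg lay wholly above the one before. Mice given 10 µg/kg had 13501, 15846, 16674, 13077 and 13997 CPM. The highest dose gave 17322, 15590, 15492, 18548 and 19859 CPM, which overlapped the group before.

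*Cyp1a2* passed the edgeR test at every dose from 0.03 µg/kg, where its log2 fold change was 1.11 (SE 0.13, adjusted p = 3.37e-06), to 30 µg/kg, where it was 3.97 and the mean 15.7-fold that of vehicle mice. The mean after 0.01 µg/kg was 1586 ± 398 CPM (SD, n = 5) against 1105 ± 122 CPM (SD, n = 5), a log2 fold change of 0.52 (SE 0.13, adjusted p = 0.137). That value passed with an adjusted p of 0.0451 in the DESeq2 Wald test and of 0.0308 in edgeR without replicate 3 at 0.01 µg/kg, which had the lowest value. Over all fits the adjusted p ran from 0.0308 to 0.393.

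*Cyp1b1* stayed low over the doses at which the other 2 genes had climbed. The lowest dose gave 0.974, 0.239, 0.696, 0.701 and 17.5 CPM. Mice given 0.03 µg/kg had 0.858, 0.527, 1.02, 0.152 and 0.541 CPM. Those given 0.1 µg/kg had 0.711, 1.10, 0.467, 0.913 and 0.493 CPM. Apart from the fifth mouse at 0.01 µg/kg these 3 groups lay between 0.152 and 1.10 CPM, within or below the range of the vehicle mice, and rested on 2 to 30 reads a mouse. Mice given 0.3 µg/kg had 2.82, 2.94, 2.35, 3.19 and 1.73 CPM, all above those given 0.1 µg/kg but overlapping the vehicle mice. The 1 µg/kg group had 92.2, 87.3, 62.3, 213 and 91.5 CPM. The 3 µg/kg group had 384, 491, 514, 494 and 468 CPM. Every mouse at 1 µg/kg was above every mouse at 0.3 µg/kg, and every mouse at 3 µg/kg above those at 1 µg/kg. Mice given 10 µg/kg had 685, 988, 892, 713 and 925 CPM. The highest dose gave 1714, 1215, 1278, 1769 and 1284 CPM, again without overlap.

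The log2 fold change of *Cyp1b1* from vehicle was -1.23 in the 0.03 µg/kg group, -1.03 in the 0.1 µg/kg group and 0.84 in the 0.3 µg/kg group, with adjusted p-values of 0.567, 0.914 and 0.67 (edgeR). It was first called at 1 µg/kg, at 6.23 (SE 0.63, adjusted p = 1.84e-09), or 5.84 without replicate 4 of that group (adjusted p = 8.40e-09), and reached 9.97 at 30 µg/kg. The mean at 30 µg/kg, 1452 ± 267 CPM (SD, n = 5), was 1029-fold that of the vehicle mice at 1.41 ± 0.977 CPM (SD, n = 5). The SE of the log2 fold change at 30 µg/kg was 0.71 for *Cyp1b1* against 0.15 for *Cyp1a2*. Vehicle values rest on 10 to 49 reads for *Cyp1b1* and 14703 to 24297 for *Cyp1a2*. The part of read number in the SE was not tested.

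Read against all 17464 genes tested, 0 of the 3 genes was called increased at 0.01 µg/kg, where 0% of genes were. In that comparison 1760 genes and 2 of the 3 members (*Cyp1a2* and *Cyp1b1*) had an unadjusted edgeR p under 0.05, the DESeq2 Wald test called 24 genes increased and 11 decreased, and limma-trend 2 and 1. At 0.03 µg/kg *Cyp1a2* was called, with a background of 0.0344%, and 2 of the 3 genes had all 5 treated mice above all 5 vehicle mice, which held for 1.45% of genes. *Cyp1a1* and *Cyp1a2* were called at 0.1 µg/kg (background 0.0229%) and at 0.3 µg/kg (0.321%). All 3 genes were called at 1 µg/kg, where 1.24% of genes were and where 2.74% had no overlap, and again after 3 µg/kg (4.34%), 10 µg/kg (8.47%) and 30 µg/kg (15.5%).

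**Figure D2:**
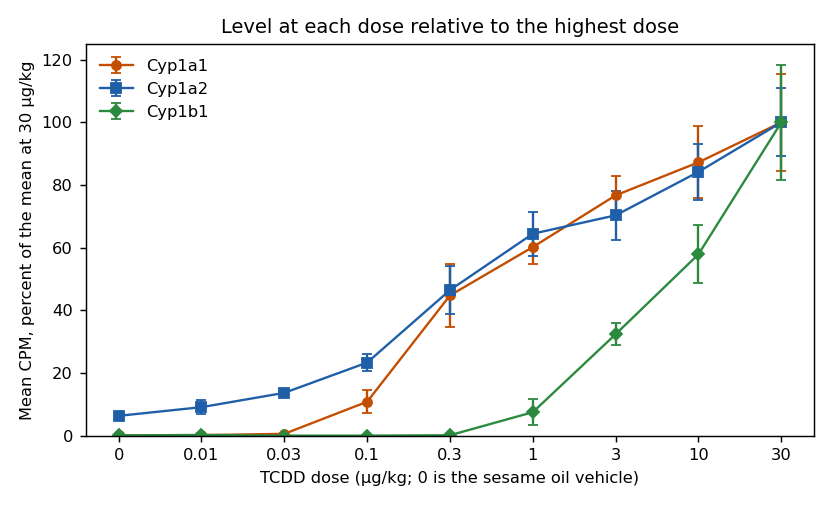
Mean CPM of each gene as a percent of its own mean at 30 µg/kg, by TCDD dose, with bars for the SD between 5 mice. At 0.3 µg/kg *Cyp1a1* and *Cyp1a2* had reached 44.8% and 46.5% of that mean and *Cyp1b1* 0.180%, and at 10 µg/kg they were at 87.2%, 84.2% and 57.9%.

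Comparisons between neighbouring doses showed where each gene climbed and where it levelled. From 0.03 to 0.1 µg/kg *Cyp1a1* rose by a log2 fold change of 4.11 (SE 0.64, adjusted p = 0.0018) and *Cyp1a2* by 0.77 (SE 0.13, adjusted p = 0.00574). They were the 2 genes called increased in that step (0.0115% of those tested). From 0.1 to 0.3 µg/kg *Cyp1a2* rose by 0.99 (adjusted p = 2.42e-05, background 0.0458%), and *Cyp1a1* by edgeR's estimate differed by 2.04 (adjusted p = 0.444), or by the same size with an adjusted p of 0.000757 without the fifth mouse at 0.01 µg/kg. *Cyp1b1* had its steepest step from 0.3 to 1 µg/kg, at 5.40 (SE 0.59, adjusted p = 1.37e-07, background 0.115%), and rose by 2.11 from 1 to 3 µg/kg (adjusted p = 0.0468, background 0.155%). The last call was lost by the DESeq2 Wald test (adjusted p = 0.242) and without each of 9 of the 10 mice of those doses, replicate 4 at 1 µg/kg being the exception.

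The step from 0.01 to 0.03 µg/kg called none of the 3 genes and 0% of all genes in edgeR, with 874 genes and all 3 members under an unadjusted p of 0.05. The log2 fold changes were 1.55 for *Cyp1a1*, 0.58 for *Cyp1a2* and -2.87, a decrease, for *Cyp1b1*. With 1 mouse left out that of *Cyp1b1* ran from -3.15 to -0.17. DESeq2 called 0 genes there and limma-trend 1, *Cyp1a1*. Without the fifth mouse at 0.01 µg/kg, *Cyp1a1* was 4.33 higher in that step on the log2 scale (adjusted p = 1.81e-08).

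In the last 2 steps 0 of the 3 genes passed the edgeR test, nor did any have an unadjusted p under 0.05, against a background of 0.55% from 3 to 10 µg/kg and 0.429% from 10 to 30 µg/kg. The DESeq2 Wald test and limma-trend did not call them either, while edgeR with only the 2 groups in the fit called *Cyp1b1* in both steps (adjusted p = 0.00497 and 0.0311). In exact permutation tests over the 21 steps of the 3 genes, *Cyp1b1* was higher by 0.83 and 0.78 on the log2 scale, without overlap in either step (adjusted p = 0.0152 for both). *Cyp1a1* differed by 0.18 and 0.19 in those steps (adjusted exact p = 0.137 and 0.204) and *Cyp1a2* by 0.26 and 0.25 (adjusted exact p = 0.0385 and 0.0625). Small increases in *Cyp1a1* were therefore not resolved above 3 µg/kg, while *Cyp1a2* passed in the first of those 2 steps. *Cyp1b1* had no overlap between any neighbouring groups from 0.1 µg/kg upward. In the same tests *Cyp1a1* was higher from 0.1 to 0.3 and from 1 to 3 µg/kg without overlap (adjusted exact p = 0.0152 for both). From 0.3 to 1 µg/kg the adjusted exact p was 0.0476 for *Cyp1a1* and 0.0278 for *Cyp1a2*. From 1 to 3 µg/kg it was 0.263 for *Cyp1a2*.

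Hill curves fitted to the log2 CPM of the 45 mice put these differences into 4 numbers. The ED50, the dose at which a gene had made 50 percent of its rise on the log2 scale, was 0.0523 µg/kg for *Cyp1a1* (95% jackknife interval 0.0422 to 0.0649), 0.0972 µg/kg for *Cyp1a2* (0.0781 to 0.121) and 0.723 µg/kg for *Cyp1b1* (0.615 to 0.849). The ED50 of *Cyp1b1* was 13.8 times that of *Cyp1a1* (interval 10.9 to 17.5) and 7.43 times that of *Cyp1a2* (5.81 to 9.52). The ED50 of *Cyp1a1* was 0.538 times that of *Cyp1a2* (0.434 to 0.668).

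The Hill slope was 1.54 (SE 0.191) for *Cyp1a1*, 0.799 (SE 0.0788) for *Cyp1a2* and 1.93 (SE 0.217) for *Cyp1b1*. *Cyp1a2* had a shallower slope than *Cyp1a1* by 0.746 (interval of the difference 0.426 to 1.07) and than *Cyp1b1* by 1.13 (0.705 to 1.55), while the difference between *Cyp1b1* and *Cyp1a1*, 0.381, had an interval of -0.229 to 0.991. The fitted rise was 10.57 log2 units for *Cyp1a1*, 3.88 for *Cyp1a2* and 10.08 for *Cyp1b1*. The rise of *Cyp1b1* minus that of *Cyp1a1* was -0.49, with an interval of -1.49 to 0.51.

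**Figure D3:**
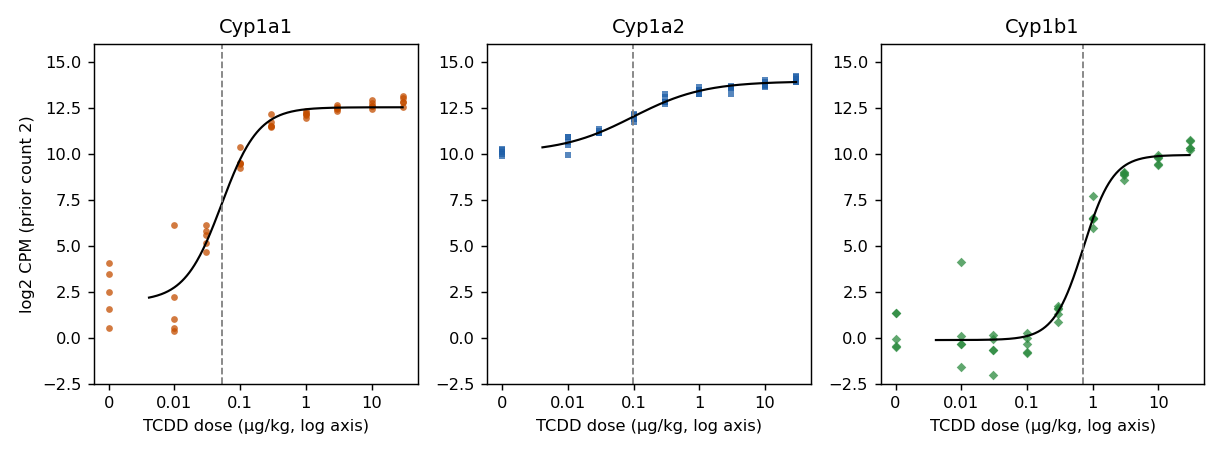
Log2 CPM (prior count 2) of each of 45 mice against TCDD dose on a log axis, with vehicle mice drawn at the left end marked 0, the fitted Hill curve (line) and its ED50 (dashed). The *Cyp1a1* curve turns at 0.0523 µg/kg, the *Cyp1a2* curve at 0.0972 µg/kg from a high base, and the *Cyp1b1* curve at 0.723 µg/kg, with the 5 mice at 30 µg/kg above the line.

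The fitted upper levels lay below the means at the top dose. Mean log2 CPM at 30 µg/kg was 12.88 for *Cyp1a1*, 14.08 for *Cyp1a2* and 10.48 for *Cyp1b1*, against fitted upper levels of 12.55, 13.97 and 9.96. Measured on linear CPM instead, the dose of 50 percent of the fitted increase was higher, at 0.201 µg/kg for *Cyp1a1*, 0.424 µg/kg for *Cyp1a2* and 2.14 µg/kg for *Cyp1b1*, in the same order. The benchmark dose, at which the curve leaves its baseline by 1.349 residual SD, was 0.0149 µg/kg for *Cyp1a1* (interval 0.00615 to 0.0236), 0.00418 µg/kg for *Cyp1a2* (0.000681 to 0.00768) and 0.266 µg/kg for *Cyp1b1* (0.109 to 0.423). The value for *Cyp1a2* lies below the lowest dose given and is an extrapolation. The residual SD was 0.98 log2 units for *Cyp1a1*, 0.22 for *Cyp1a2* and 0.95 for *Cyp1b1*, so the benchmark doses mark responses of unequal size, 1.32, 0.29 and 1.28 log2 units. The benchmark dose of *Cyp1a1* was higher than that of *Cyp1a2* by 0.0107 µg/kg (interval 0.00305 to 0.0183), in the opposite order to their ED50 values, for these unequal responses. Without the fifth mouse at 0.01 µg/kg the benchmark doses of *Cyp1a1*, *Cyp1a2* and *Cyp1b1* were 0.0134, 0.00439 and 0.191 µg/kg, the last with an interval of 0.122 to 0.260. Their residual SDs were then 0.82, 0.21 and 0.67 log2 units, their ED50 values 0.0508, 0.0966 and 0.699 µg/kg, and their slopes 1.63, 0.817 and 1.81.

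The ratio of the reads of 2 genes within a mouse does not depend on library scaling, and it tested directly whether they changed by different folds. The ratio of *Cyp1a1* to *Cyp1a2* had a median of 0.00504 in vehicle mice, 0.0219 after 0.03 µg/kg, 0.193 after 0.1 µg/kg and 0.407 after 0.3 µg/kg. From there it stayed between 0.351 and 0.531 in all 25 mice up to 30 µg/kg. It was higher than in vehicle mice at 7 of 8 doses (adjusted exact permutation p between 0.0106 and 0.0301 over 24 comparisons, all doses from 0.03 µg/kg). The call at 0.03 µg/kg, the largest of these p-values, was lost without any 1 of 4 of the 10 mice compared (adjusted exact p of 0.0501 to 0.0702). With 1 mouse left out, the number of doses that differed in either direction ran from 6 to 8. Where it was 8, the ratio at 0.01 µg/kg was lower than in vehicle mice (log2 change -1.84, adjusted exact p = 0.0381). Between neighbouring doses it differed from 0.03 to 0.1 and from 0.1 to 0.3 µg/kg (adjusted exact p = 0.0152 for both), and in none of the 4 higher steps (adjusted exact p of 0.0513 or more). The largest of those 4 steps was 0.23 log2 units, from 1 to 3 µg/kg.

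The ratio of *Cyp1b1* to *Cyp1a1* fell and then rose. Its median was 0.224 in vehicle mice and 0.0124 after 0.03 µg/kg. It was 0.000856 and 0.000793 in the next 2 groups, 0.0201 after 1 µg/kg, 0.0799 after 3 µg/kg and 0.195 after 30 µg/kg. All 5 mice at each dose from 0.03 to 3 µg/kg were below all vehicle mice (adjusted exact p = 0.0106). The log2 change from vehicle to 30 µg/kg was -0.25 (adjusted exact p = 0.613), with ratios of 0.117 to 0.488 in vehicle mice and 0.151 to 0.235 in treated mice. The ratio was higher at each of the 4 steps from 0.3 µg/kg upward without overlap (adjusted exact p = 0.0152), including the last 2, where it grew by 0.65 and 0.59 log2 units. Against *Cyp1a2* the ratio of *Cyp1b1* was below that of every vehicle mouse at 0.03, 0.1 and 0.3 µg/kg and above it from 1 µg/kg, with an adjusted exact p of 0.0106 at each.

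**Figure D4:**
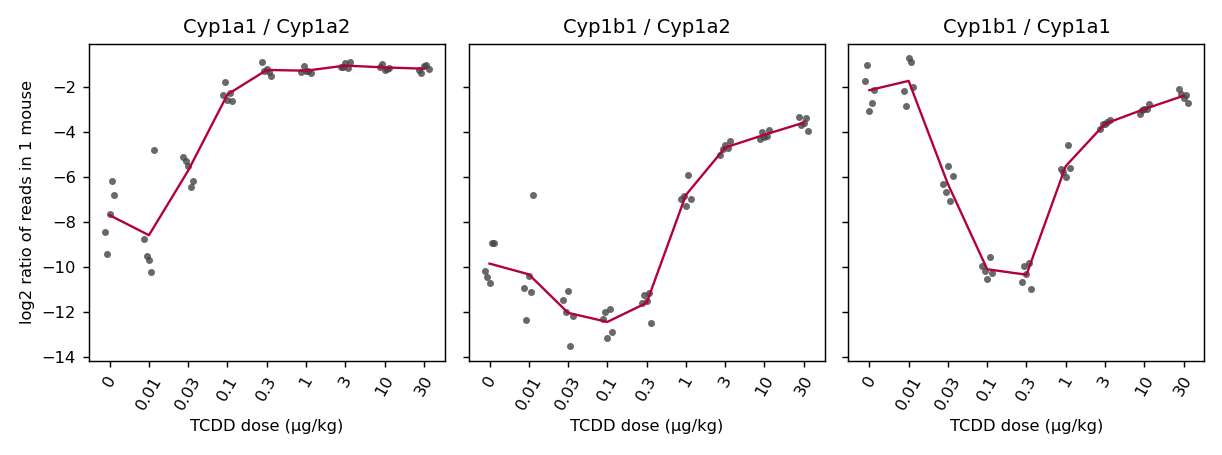
Log2 ratio of the reads of 2 Cyp1 genes within each of 45 mice by TCDD dose, with the line through the group means. *Cyp1a1* over *Cyp1a2* levels from 0.3 µg/kg at a mean near -1.25, while *Cyp1b1* over *Cyp1a1* drops to -10.35 at 0.3 µg/kg and returns to -2.40 at 30 µg/kg.

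The fifth mouse at 0.01 µg/kg was at 69.7 CPM for *Cyp1a1* and 17.5 CPM for *Cyp1b1*, from 3338 and 837 reads, while the other 4 mice of its group were between 1.18 and 4.54 CPM and between 0.239 and 0.974 CPM. Its *Cyp1a2*, at 1926 CPM, was within the range of the group. Its *Cyp1a1* level was that of mice given 0.03 µg/kg, whose *Cyp1b1* was between 0.152 and 1.02 CPM. As percents of the mean at 30 µg/kg, it had 0.914% of *Cyp1a1* and 1.204% of *Cyp1b1*. The same percent was 1.34% for *Col9a2* (74 reads, against at most 1 read in each other mouse of its group and of the vehicle group), 1.398% for *Nptx1* (157 reads, against at most 17) and 1.09% for *Hmx1*, the last from 2 reads against 0. In this mouse the summed level of 6 Kupffer cell and macrophage markers was 807 CPM against 132 to 283 CPM in the other 4, and that of 4 other leukocyte markers 49.0 CPM against 7.78 to 12.6 CPM. Neither the source of these percents nor the part of these cell types in its Cyp1 levels was tested.

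Without that mouse the log2 fold change from vehicle to 0.01 µg/kg was -1.66 (SE 0.41, unadjusted p = 0.000194, adjusted p = 0.203) in place of 1.11 for *Cyp1a1* and -1.06 (SE 0.43, adjusted p = 0.418) in place of 1.64 for *Cyp1b1* (edgeR). For *Cyp1a2* it was 0.44 in place of 0.52. The log2 ratio of *Cyp1a1* to *Cyp1a2* then differed from vehicle mice by -1.84 (adjusted exact p = 0.0381), against a difference of -0.89 with the mouse (adjusted exact p = 0.511). EdgeR called none of these fold changes, and those of *Cyp1a1* and *Cyp1b1* at 0.01 µg/kg changed sign with this 1 mouse.

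**Figure D5:**
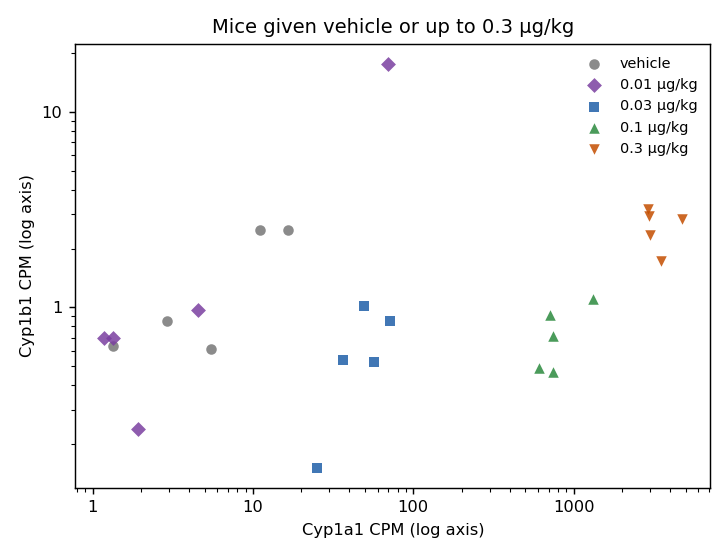
*Cyp1b1* against *Cyp1a1* in CPM on log axes for the 25 mice given vehicle or up to 0.3 µg/kg, marked by dose. Up to 0.1 µg/kg *Cyp1b1* was at or below 2.48 CPM, except in 1 mouse at 0.01 µg/kg at 69.7 CPM of *Cyp1a1* and 17.5 CPM of *Cyp1b1*. The other mice at 0.01 µg/kg had 1.18 to 4.54 CPM of *Cyp1a1*, against 1.34 to 16.6 CPM in vehicle mice. The groups at 0.03 and 0.1 µg/kg lie to the right of the vehicle mice.

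The spread between mice of a group differed between doses, in part with single mice. For *Cyp1a1* the SD was 37.6% of the mean at 0.03 µg/kg and 8.01% at 3 µg/kg. In the 0.1 µg/kg group it was 34.2%, and 8.92% without replicate 2, the mouse at 1325 CPM. For *Cyp1b1* it was 54.2% at 1 µg/kg, where mice ranged from 62.3 to 213 CPM, 17.0% without the highest of them, replicate 4, and 10.8% at 3 µg/kg. *Cyp1a2* had between 8.24% and 16.4% at every dose but 0.01 µg/kg, where it was 25.1%. Deviations of single mice from their group mean of log2 CPM were correlated between *Cyp1a1* and *Cyp1a2* (Pearson r = 0.563, permutation p = 0.02, adjusted 0.03, Spearman rho = 0.654, permutation p = 2e-05, adjusted 6e-05, 45 mice), and r was 0.557 without the 2 mice farthest from the median. Between *Cyp1b1* and *Cyp1a1* r was 0.856 (permutation p = 0.00016, adjusted 0.00048) and rho 0.649 (permutation p = 5e-05, adjusted 7.5e-05), and r was 0.676 without the 2 farthest mice and 0.634 without the fifth mouse at 0.01 µg/kg (permutation p = 0.0034, adjusted 0.005). Between *Cyp1b1* and *Cyp1a2* r was 0.402 (permutation p = 0.16) and rho 0.332 (permutation p = 0.04), and r was 0.301 without the 2 farthest mice. The 3 genes of a mouse share 1 library.

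The genes whose log2 CPM was most alike over the 45 mice differed between the members. Over 13609 genes with a mean of at least 10 reads, those nearest to *Cyp1a1* were *Cyp1a2* (Pearson r = 0.960), *Slc46a3* (0.951), *Htatip2* (0.926), *Pcp4l1* (0.897) and *Nptx1* (0.894). Nearest to *Cyp1a2* were *Htatip2* (0.969), *Cyp1a1* (0.960), *Nptx1* (0.954), *Slc46a3* (0.946) and *Insl6* (0.937). Nearest to *Cyp1b1* were *Ahrr* (0.980), which encodes the AhR repressor, *Insl6* (0.959), *Serpinb6a* (0.959), *Fhit* (0.955) and *Rcan3* (0.952). *Cyp1b1* stood 67th among the genes nearest to *Cyp1a1*, with an r of 0.7502. The points share 9 dose groups, so these correlations describe the shape over dose.

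Of the 7 genes of the AhR complex 6 were tested, and the 1 that edgeR called at any dose was the co-chaperone gene *Ptges3*. It was decreased at 30 µg/kg, where 14.1% of all genes tested were, a share near 1 of 6. Its level there was 36.2 ± 4.395 CPM (SD, n = 5) against 47.4 ± 9.20 under vehicle (SD, n = 5, log2 fold change -0.39, adjusted p = 0.032, edgeR). *Ahr* levels were 73.6 ± 14.7 CPM under vehicle and 68.2 ± 9.84 CPM under 30 µg/kg (SD, n = 5 each, adjusted p = 0.737, edgeR). *Arnt* levels were 58.7 ± 6.67 and 55.4 ± 8.74 CPM (adjusted p = 0.707, edgeR). Both feedback genes rose. *Ahrr* went from 0.139 ± 0.0988 CPM to 75.4 ± 16.2 CPM at 30 µg/kg and was first called at 1 µg/kg, the same dose as *Cyp1b1*. *Tiparp*, whose product ADP-ribosylates the receptor, went from 13.7 ± 2.36 to 169.7 ± 24.95 CPM and was first called at 3 µg/kg.

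Of 13 other genes of the AhR battery, 9 were called increased and 1 decreased at 30 µg/kg, where 15.5% and 14.1% of all genes tested were, with a median log2 fold change of 1.24 against 0.02 over all genes tested. Those called first were *Ugdh*, which makes UDP-glucuronic acid, and *Nfe2l2*, which encodes the transcription factor NRF2, both from 0.3 µg/kg. The quinone reductase gene *Nqo1* went from 17.01 ± 3.74 to 68.5 ± 15.51 CPM and the glucuronosyltransferase gene *Ugt1a6a* from 98.1 ± 5.96 to 241 ± 31.5 CPM (SD, n = 5), both called from 1 µg/kg, although reads of *Ugt1a6a* can be split with near-identical family members. *Inmt*, a methyltransferase gene, fell by 2.57 on the log2 scale. Of 7 genes for the electron partners and the heme supply of P450 enzymes, 1 was called increased and 2 decreased at 30 µg/kg, shares near the 15.5% and 14.1% of all genes. They were *Hmox1*, which degrades heme, and *Cyb5b* and *Cyb5r3*, which encode a cytochrome b5 and a cytochrome b5 reductase. *Cyb5a*, another cytochrome b5 gene, was called increased at 10 µg/kg alone and was at 1404 ± 217 CPM under vehicle and 1754 ± 174 CPM at 30 µg/kg (adjusted p = 0.0623, edgeR). *Por*, the P450 reductase gene, was at 683 ± 154 and 885 ± 247 CPM (adjusted p = 0.479). *Alas1*, the rate-limiting enzyme of heme synthesis, was at 849.6 ± 269.5 and 945 ± 332 CPM (adjusted p = 0.876).

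Over the whole pathway list, 28 of 29 genes were tested and none was called at 0.01, 0.03 or 0.1 µg/kg. Increased genes numbered 2 after 0.3 µg/kg (background 0.321%) and 7 after 1 µg/kg (1.24%), with none decreased. After 3 µg/kg 8 were increased and 2 decreased (backgrounds 4.34% and 3.2%), and after 10 µg/kg 11 and 3 (8.47% and 7.47%). At 30 µg/kg 12 were increased and 4 decreased, where 15.5% and 14.1% of all genes tested were. The median log2 fold change of the list was 0.35 at 30 µg/kg. *Cyp1a2* at 0.03 µg/kg and *Cyp1a1* at 0.1 µg/kg were called by edgeR at lower doses than any gene of this list.

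Marker genes of non-hepatocytes also moved at the top doses. At 30 µg/kg, 4 of 6 endothelial, 3 of 6 stellate cell and fibroblast, 2 of 6 Kupffer cell and macrophage, 2 of 4 other leukocyte and 0 of 5 cholangiocyte markers were called increased by edgeR, and 3 of 6 hepatocyte markers decreased. Over all genes tested, 15.5% were increased and 14.1% decreased at this dose. The summed stellate cell and fibroblast markers ranged from 237 to 321 CPM in vehicle mice and from 459 to 588 CPM at 30 µg/kg. The 6 Kupffer cell and macrophage markers summed to 149 to 228 CPM in vehicle mice and 127 to 375 CPM at 30 µg/kg, and the endothelial ones to 128 to 169 and 151 to 248 CPM. Other leukocyte markers summed to 6.87 to 13.5 and 14.2 to 29.9 CPM, and cholangiocyte markers to 52.1 to 77.5 and 52.99 to 70.2 CPM. At 1 µg/kg, where *Cyp1b1* was first called, 0 markers of these 5 non-hepatocyte lists were called increased. Among all genes tested, 1.24% were called increased there. The median log2 fold change at that dose was 0.68 for Kupffer cell and macrophage markers and 0.76 for other leukocyte markers. For stellate cell and fibroblast, endothelial and cholangiocyte markers it was 0.27, 0.05 and -0.19. For hepatocyte markers it was -0.40, with 1 of 6 called decreased, where 90 of 17464 genes tested were. At 30 µg/kg the hepatocyte median was -0.51. The part of these cell types in the *Cyp1b1* level at 1 or 30 µg/kg was not tested.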

How the data were processed

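RNA-Seq libraries from 45 livers were analysed as the raw counts that the authors deposited, 1 value per Ensembl gene. Per the labels and the methods of the study, reads were checked with FastQC 0.11.2, aligned to GRCm38 with TopHat 1.4.1, sorted with SAMtools 0.1.19 and counted with HTSeq 0.6.1, without normalization. Reads that aligned to more than 1 place are not in the gene counts. The 5 rows that name no gene were left out. Reads in no gene or ambiguous between genes were 10.7% to 18.4% of the sum of these and the reads on genes. Alignments that were not unique, another of the 5 rows, numbered between 0.674 and 1.41 per read on genes. Groups came from the dose labels. Sequencing pools are not in the labels, so no value was computed within pools. Replicate pairs all differed by more than sampling noise (90 pairs, chi-square per degree of freedom at least 13.7).

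Genes with more than 4 reads in any sample (17464) were tested with edgeR 4.0.16 in R 4.3.3 (TMM, quasi-likelihood test, all 45 mice in 1 fit, Benjamini-Hochberg adjustment within each comparison, called at an adjusted p under 0.05), against the vehicle and between neighbouring doses. Exact two-sided permutation tests compared 5 mice with 5 on log2 CPM (prior count 2) and on the log2 read ratio within a mouse (0.5 added to each count), and correlations used 100000 permutations within groups. The SE of an edgeR fold change was computed as its absolute log2 value over the square root of the F statistic. It therefore rests on a spread shared by all groups in the fit. Hill curves were fitted by least squares with delete-1 jackknife errors and 95% normal intervals. These steps ran under Python 3.11.15 (scipy 1.17.1, numpy 2.4.6, pandas 2.3.3 and, for plots, matplotlib 3.10.9). The curve fits and tests were checked on simulated data. For the curves the simulated noise was equal at every dose and smaller than the residual SD of *Cyp1a1* and *Cyp1b1*. Jackknife intervals and benchmark doses were not part of that check. Alternatives used DESeq2 1.42.0, limma 3.58.1, other scalings, no filter, 2 added counts, linear curves and each mouse left out, and leaving out mice at 0.01 µg/kg in all comparisons, or single mice from the spread of a group, was chosen after seeing the data.

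Named genes were the 3 members, the AhR pathway list, cell type markers and the 5 genes most alike to each member. *Col9a2*, *Nptx1* and *Hmx1* were added after their values were known. Members and lists were chosen with earlier results of these data known. Symbols matched 37607 of 39179 genes. Lengths and positions are from GENCODE M21 (GRCm38) and promoters from RefSeq (GRCm38.p6), matched for all 3 members.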

Additional observations from a re-analysis of the deposited data

Results flagged for a closer look

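Within each group of 5 mice the gap between the most extreme mouse and its neighbour was compared with the whole range, over 27 sets of a gene and a dose, and in 4 of them 1 mouse stood apart, 3 mice in all. Chance sets apart about 1 in 20 groups. At 0.01 µg/kg replicate 5 had the highest *Cyp1a1*, 69.7 CPM against 1.18 to 4.54 CPM in the other 4 mice, and the highest *Cyp1b1*, 17.5 CPM against 0.239 to 0.974 CPM. At 0.1 µg/kg replicate 2 was at 1325 CPM for *Cyp1a1* while the other 4 mice were between 612 and 745 CPM. At 1 µg/kg replicate 4 was at 213 CPM for *Cyp1b1*, where the others were between 62.3 and 92.2 CPM. No *Cyp1a2* value stood apart in this way.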

How the results depend on the processing

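Of 2417 values recomputed under alternatives, most kept their direction and their side of the threshold. *Cyp1a1* at 0.03 µg/kg was called with a log2 fold change of 2.68 by the DESeq2 Wald test and 3.07 by limma-trend, so its lowest dose called was 0.03 µg/kg there. Leaving out 1 mouse gave 2.39 to 3.17 and a lowest dose of 0.03 to 0.1 µg/kg, and leaving out replicates 2 and 5 at 0.01 µg/kg, chosen after seeing the data, gave 2.66 and 0.03 µg/kg. At 0.01 µg/kg the *Cyp1a1* change was -0.39 by limma-trend, -1.66 to 1.64 with 1 mouse left out and -1.58 without both mice, and that of *Cyp1b1* was -1.06 to 1.97 and -0.82. *Cyp1a2* at 0.01 µg/kg was called at 0.52 by DESeq2, which made 0.01 µg/kg its lowest dose, and with 1 mouse left out the change was 0.43 to 0.66 and the lowest dose 0.01 to 0.03 µg/kg. The causes were not tested.

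The number of neighbouring steps called was 2 for *Cyp1a1* by limma-trend and with only 2 groups in the fit, 3 without both mice at 0.01 µg/kg and 1 to 3 with 1 mouse left out. It was 1 for *Cyp1a2* with only 2 groups in the fit. For *Cyp1b1* it was 1 by DESeq2, limma-trend and the robust fit, 5 with only 2 groups and 1 to 3 with 1 mouse left out, so its call from 1 to 3 µg/kg was lost without each of 9 of the 10 mice of those doses. *Cyp1b1* from 0.03 to 0.1 µg/kg was between -0.029 and 0.42 with 1 mouse left out.

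On linear CPM the log10 ED50 was -0.70, -0.37 and 0.33 and the slope 2.70, 0.90 and 3.14 for *Cyp1a1*, *Cyp1a2* and *Cyp1b1*. Without normalization the fitted baseline of *Cyp1a2* was 10.00 and its rise 4.08. The log2 change in the ratio of *Cyp1b1* to *Cyp1a2* at 0.01 µg/kg was between -1.36 and 0.034 with 1 mouse left out, and that to *Cyp1a1* at 30 µg/kg between -0.48 and 0.030. The change of *Cyp1a1* over *Cyp1a2* at 0.03 µg/kg was 1.55 to 2.36 with 1 mouse left out, and its call was lost without vehicle replicate 2 or without replicate 1, 2 or 3 at that dose. With 2 added to each count the change in the ratio of *Cyp1b1* to *Cyp1a1* at 10 µg/kg was -0.93 (adjusted exact permutation p = 0.0201). Pathway genes increased at 0.3 µg/kg numbered 4 by DESeq2, and those decreased at 10 µg/kg 1 without normalization. Over all genes, DESeq2 against edgeR called 24 increased and 11 decreased against 0 and 0 at 0.01 µg/kg, 42 and 36 against 6 and 4 at 0.03 µg/kg, and 92 and 49 against 56 and 25 at 0.3 µg/kg. It called 19 and 2 against 8 and 0 from 0.1 to 0.3 µg/kg, and 31 and 1 against 20 and 0 from 0.3 to 1 µg/kg. No paired analysis was possible because the labels number no replicates, and the numbers used here only follow the order of the samples and tie no mice together. Depth limits *Cyp1b1* below 1 µg/kg, where mice had 2 to 68 reads apart from 1 with 837.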
